A study of Mus musculus with 132 samples.

Results

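Hematopoietic progenitor cells (HPCs) were compared with the undifferentiated mouse embryonic stem cells (mESCs) from which differentiation starts, so that the comparison measures the net change over 7 days of culture. Its members are the 6 wild-type poly(A)-minus RNA-seq libraries of these stages, chosen by their sample labels, of 132 samples in the series and 23 libraries in the count table. The 2 mESC libraries (day 0) are labelled as technical replicates of parental E14-TG2a cells, a male line of the 129/Ola strain, and their RNA was depleted of ribosomal RNA (rRNA). The 4 HPC libraries (day 7) are CD41+ CD45- cells without the erythroid surface antigen Ter119, by the study's sort gates, of 3 wild-type clones of that line, named C6.1, C8.1 and B9.3, the last in 2 libraries (B9.3 and B9.3-2). Between both ends lie 3 libraries of Flk1+ mesoderm, sorted on day 4 from embryoid bodies of the same 3 clones and used here to divide the net change into 2 steps. Cells were differentiated without serum, with BMP4 and then bFGF and Activin A, and sorted mesoderm was cultured further with SCF and VEGF. No rRNA depletion is named for mesoderm or HPCs, and mESCs are a single culture of another clone, so stage, library preparation and clone cannot be told apart in any difference from mESCs.

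Mouse embryonic stem cells are held in pluripotency by a network of transcription factors around Oct4 (Pou5f1), Sox2 and Nanog. Blood arises from Flk1+ mesoderm through a hemogenic endothelium, which turns into round blood progenitors under the control of Runx1, and CD41 (Itga2b) is among the first surface proteins of these progenitors. In early embryonic cultures such progenitors include primitive erythroid cells and megakaryocytes, whereas CD45 (Ptprc) marks later leukocytes. RNA without a poly(A) tail is rich in nascent, unspliced transcripts, and reads were counted over exons and introns.

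Depth differed strongly between both ends. Entries of rRNA, of rRNA-like sequence and of genes listed at several loci took 71.6% and 81.8% of the counts in mESCs, 96.2% to 98.6% in mesoderm and 94.9% to 96.5% in HPCs. All other genes together had 6900802 and 3728835 counts in the mESC libraries, 307483 to 697724 in mesoderm and 292375 to 550847 in HPCs. Levels are given as CPM, counts divided by the TMM-adjusted library size and scaled by a constant, which compares 1 gene between libraries and not different genes. On this scale 3 counts, the floor used for bounds, amount to 0.0221 and 0.0399 CPM in mESCs, 0.235 to 0.491 in mesoderm and 0.336 to 0.517 in HPCs, which covers counting error alone. A gene at 0 in HPCs was therefore not detectable at this depth, whereas the same level could be counted in mESCs. The technical replicates differed by more than sampling noise and were kept as 2 libraries. Their chi-square per gene was 6.12, against 2.51 to 8.52 over all pairs within a group. This value grows with the counts per gene, which were highest in mESCs, so it does not compare the spread between groups. Their labels give 1 biological replicate, whereas the paper counts 2 independent experiments of undifferentiated cells. By the labels, p-values against mESCs measure only the spread between libraries.

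The labels held against their markers. Runx1, the transcription factor of hemogenic endothelium (chromosome 16, 92601710 to 92826319, mm9), had 1.21 and 0.811 CPM in mESCs, 5.41 (B9.3), 17 (C6.1) and 20.8 (C8.1) in mesoderm, and 125, 101, 117 and 182 in HPCs of B9.3, B9.3-2, C6.1 and C8.1. Every HPC library was above every mesoderm library and these above both mESC libraries, and the net log2 fold change was 7.01 ± 0.62 (SE, adjusted p = 1e-05, edgeR quasi-likelihood test with Benjamini-Hochberg adjustment, as in all tests below). Itga2b, which encodes CD41 itself, had 0.0664 and 0.0399 CPM in mESCs and 25 to 55.1 in HPCs (log2 fold change 9.32 ± 0.58, adjusted p = 2.1e-06). As the gene of the sort marker, it checks the samples and is no finding. Ptprc, which encodes CD45, had at most 3 counts in every one of the 9 libraries, as the CD45- gate asks. Pou5f1 had 6.65 and 7.72 CPM in mESCs and no counts in any HPC library, which makes HPCs at least 18-fold lower (adjusted p = 0.00012).

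**Figure D1:**
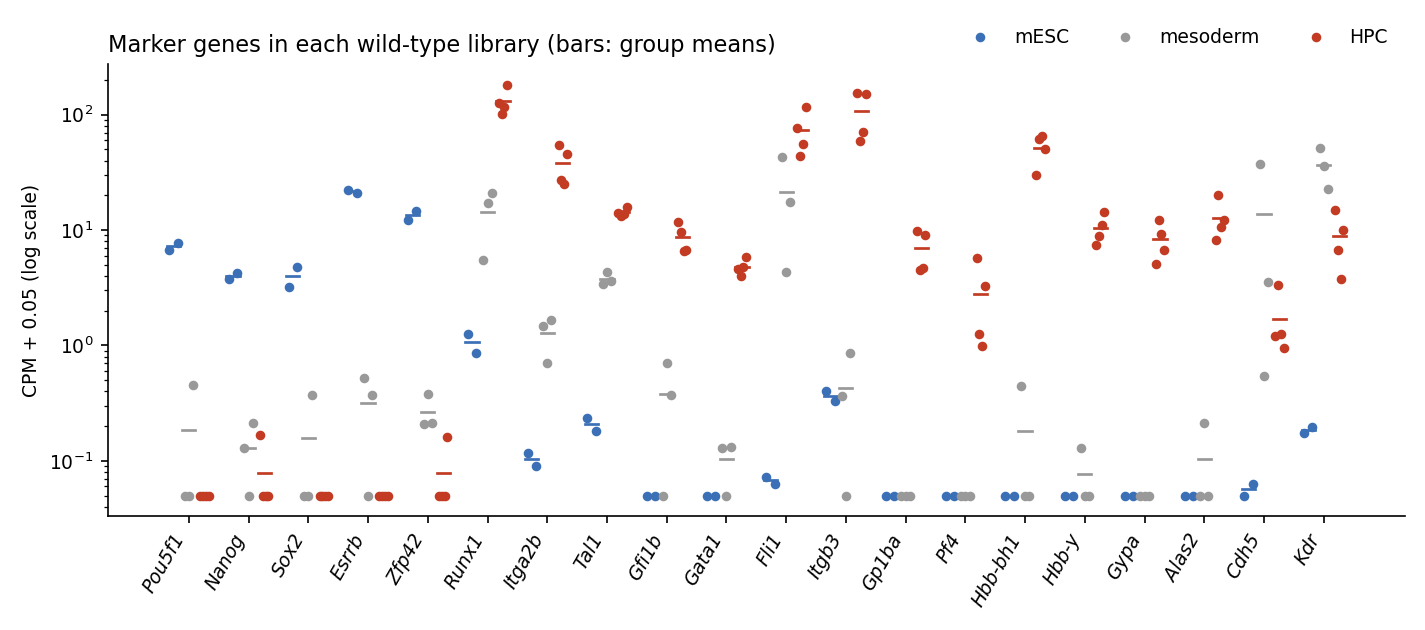
Levels of marker genes in each wild-type library, as CPM + 0.05 on a log axis (points: libraries; bars: group means; n = 2 mESC, 3 mesoderm and 4 HPC libraries). Pluripotency genes such as Pou5f1 lie at or near 0 in HPCs, whereas Runx1 alone lies between 101 and 182 CPM in HPCs and at or below 1.21 in mESCs.

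Of 12899 genes tested, 5408 (41.9%) were called changed between mESCs and HPCs (adjusted p below 0.05 and a change of more than 1 on the log2 scale in either direction). In HPCs 2188 genes (17.0%) were higher and 3220 (25.0%) lower, and the median log2 fold change over all genes tested was -0.24. When the mESC libraries were summed and entered as 1 sample, 3587 of 13136 genes (27.3%) were called, 1555 higher (11.8%) and 2032 lower (15.5%). Of the calls with both libraries, 3553 (65.7%) were kept in the same direction and 0 turned. The share of higher genes among the called ones, 40.5%, was 48.9% after all libraries had been thinned to the shallowest and 44.9% with DESeq2.

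The 10 higher genes with the smallest adjusted p included regulators and surface proteins of blood cells. Tal1, a transcription factor needed for all blood lineages, had 0.184 and 0.133 CPM in mESCs and 13.9, 13.1, 13.8 and 15.9 in HPCs (log2 fold change 6.42 ± 0.30, adjusted p = 3.5e-07). Its HPC libraries lay close together and far above both mESC libraries. Cbfa2t3 (Eto2), a corepressor that binds Tal1 complexes, rose by 7.60 ± 0.32 on the log2 scale (3.4e-07), from 0.133 and 0.173 CPM to between 23.9 and 33. Grap2, an adaptor of immune receptors and platelets, had 0.0811 and 0.0399 CPM in mESCs against 17.5 to 32.5 in HPCs (8.47 ± 0.43). Tspan32, a tetraspanin of blood cells, had 0.0443 and 0.0399 CPM against 16.4 to 23.8. The others were Ache, the acetylcholine esterase that red cells also carry (at least 321-fold higher), Nmnat3, an enzyme of NAD synthesis (7.70 ± 0.38), Adgrg1 (Gpr56), an adhesion receptor of blood stem cells (5.53 ± 0.31), the cytokine gene Tgfb1 (7.02 ± 0.41), Uba7, the activating enzyme of ISG15 (8.57 ± 0.41), and the repressor Zeb2 (6.91 ± 0.39). None of these 10 genes overlapped between mESC and HPC libraries, which was asked of them and held for 61.7% of all genes tested.

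The 10 lower genes with the smallest adjusted p were led by regulators of the pluripotent state. The long noncoding RNA Lncenc1 had 37.6 and 46.5 CPM in mESCs and no counts in HPCs (at least 105-fold lower, adjusted p = 1.7e-06). Tfcp2l1, a factor of naive pluripotency, had 27.1 and 24.3 CPM in mESCs against 0 to 0.347 in HPCs (at least 64.2-fold lower), and Zfp42 (Rex1) had 12.2 and 14.5 against 0 to 0.112 (at least 33.3-fold lower). Phc1, a subunit of the canonical Polycomb complex PRC1, fell by 3.54 ± 0.22 on the log2 scale, from 27.8 and 29.8 CPM to between 1.91 and 2.92. Its partner Cbx7, which recruits that complex to methylated histone H3, had 8.69 and 10.4 CPM in mESCs and 0 to 0.133 in HPCs, at least 23.9-fold lower. The remaining ones were the noncoding RNA Platr22 (at least 30.8-fold lower), the RNA-binding protein gene Elavl2 (28.5-fold), the transcription factor genes Sall1 (27.5-fold) and Zfp980 (24.1-fold), and Spry2, an inhibitor of FGF signaling (15.6-fold), each also a lower bound.

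Pluripotency genes fell almost without exception. Of 26 genes of this list, 25 were tested, 24 were called lower and 0 higher, and 15 had no counts in any HPC library. The median log2 fold change was -8.52, or -3.31 with members at the floor set to their bound, beside -0.24 over all genes tested. Summed over the list, mESCs had 216 and 230 CPM, mesoderm 40.5 to 98.6 and HPCs 1.46 to 2.02. Nanog had 3.73 and 4.23 CPM in mESCs, and Sox2 3.15 and 4.73. In HPCs Nanog had 1 count in the B9.3 library alone and Sox2 none, giving bounds of at least 9.95-fold and 9.86-fold lower. Most of this loss lay in the first step, as 17 of the 24 were called lower in mesoderm and not again afterwards. Sall4, a zinc finger factor that mesoderm keeps, went another way. It had 43.2 and 45.7 CPM in mESCs, 14.1, 46 and 29.1 in mesoderm and 0.133 to 0.517 in HPCs, so that mESCs and mesoderm overlapped while every HPC library was far below (at least 111-fold lower than mESCs, adjusted p = 2.5e-06). The RNA-binding protein gene Lin28a had 21.7 and 24.7 CPM in mESCs, 8 to 16.4 in mesoderm and 0 to 0.463 in HPCs (net log2 fold change -7.13 ± 0.57), and Klf4 likewise fell in the second step alone.

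Transcription factors of hematopoiesis rose. Of 27 list members 25 were tested, 22 were called higher and 0 lower, with a median log2 fold change of 5.45. Fli1, an ETS factor of endothelium and megakaryocytes, had 0.0221 and 0.0133 CPM in mESCs, 42.7, 4.26 and 17.5 in mesoderm and 76.7, 44, 55.8 and 117 in HPCs. Both mESC libraries were at or below the floor and every HPC library was above every mesoderm library, at least 2370-fold above mESCs (adjusted p = 2.4e-05). Gata1, the master regulator of erythroid and megakaryocyte genes, had no counts in mESCs, at most 0.0807 CPM in mesoderm and 3.97 to 5.83 in HPCs, at least 154-fold above mESCs. Gfi1b, a repressor downstream of Runx1 in the endothelial-to-hematopoietic transition, had 6.51 to 11.8 CPM in HPCs and was at least 279-fold higher. Lmo2, the bridging protein of Tal1 complexes, rose by 6.79 ± 0.46 on the log2 scale, and Meis1, a homeobox factor of stem and progenitor cells, by 5.74 ± 1.01 with HPC values of 78.6, 28.8, 38.1 and 87.9 CPM. Gata2, which acts earlier than Gata1, had 0.162 and 0.133 CPM in mESCs, 1.25 to 2.26 in mesoderm and 0.862 to 1.46 in HPCs. It was called higher in the first step and not called in the second (log2 fold change -0.53 ± 0.35, adjusted p = 0.3). Spi1, the myeloid factor PU.1, was low in HPCs with 0.347 to 1.35 CPM and nevertheless called higher (4.75 ± 0.80, adjusted p = 0.00061), whereas Gfi1 had no counts in HPCs and was not tested.

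Genes of megakaryocytes and of erythroid cells were both higher in HPCs, and their balance varied between HPC libraries. All 19 megakaryocyte and platelet genes tested (of 20) were called higher, with a median log2 fold change of 9.32 (7.29 with members at their bound). Of 18 erythroid and globin genes 17 were tested and 16 called higher (median 8.62, or 7.19). Gp1ba, the platelet receptor for von Willebrand factor, had no counts in mESCs or mesoderm and 9.72, 4.48, 4.65 and 8.97 CPM in HPCs of B9.3, B9.3-2, C6.1 and C8.1 (at least 224-fold above mESCs, adjusted p = 1.9e-05). Itgb3, the integrin chain that pairs with CD41, had 0.354 and 0.279 CPM in mESCs and 153, 59.6, 70.2 and 151 in HPCs in the same order. In both genes B9.3 and C8.1 were the higher pair. The embryonic globin gene Hbb-bh1 had no counts in mESCs and 30.1, 61.2, 65.6 and 49.9 CPM in HPCs (at least 1668-fold higher, adjusted p = 4.2e-06). Hba-x, the embryonic alpha-like globin gene, had 32.6, 108, 100 and 57.6 CPM (at least 2408-fold higher). Here B9.3-2 and C6.1 were the higher pair. Summed over the lists and in the same order of libraries, megakaryocyte genes had 945, 341, 366 and 877 CPM, and erythroid genes 194, 440, 436 and 276. The libraries of clone B9.3 thus stood on either side, and HPC libraries did not divide by clone. The sort removed erythroid cells that carry Ter119, so the erythroid values are those of the cells left by that gate. In RNA of a sorted population, a different number of cells of a type and a different amount of RNA per cell cannot be told apart.

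RefSeq promoter windows (build GRCm38.p6, 250 bases before to 50 after the start, which is not the mm9 build of the count table) were searched for the letters AGATAA, bound by GATA factors, on both strands. They were found in 9 of the 39 hematopoietic, megakaryocyte and erythroid genes called higher that had a sequence, of 57 (23.1%), beside 7.56% of 1707 genes called higher, 5.85% of 9997 genes tested and 11.4% of 27025 promoters in the table. The 9 were Tal1, Gp5, Pf4, Clec1b, F2rl2, Epor, Alas2, Epb42 and Hemgn. The ETS letters AGGAAG were found in 43.6% of the 39 (32.1% of genes tested, 35.1% of all promoters) and the RUNX letters TGTGGT in 23.1% (11.8% and 16.9%). Among 15 pluripotency genes called lower with a sequence, 1 (Zfp42) held the octamer ATTTGCAT that Oct4 binds, beside 1.75% of all promoters. The windows below carry the letters in capitals and are read 5′ to 3′ on the strand of the gene: Tal1 (chr4:115056176-115056475, plus strand), Pf4, a platelet chemokine (chr5:90772185-90772484, plus), Alas2, the erythroid enzyme that starts heme synthesis (chrX:150547167-150547466, plus), Epb42, a protein of the red cell membrane (chr2:121036828-121037127, minus), and Zfp42 (chr8:43306960-43307259, minus). The capitals mark GATA letters (AGATAA or TTATCT) in the first 4, ETS letters (AGGAAG or CTTCCT) also in Pf4 and Alas2, and the octamer in Zfp42.
Tal1: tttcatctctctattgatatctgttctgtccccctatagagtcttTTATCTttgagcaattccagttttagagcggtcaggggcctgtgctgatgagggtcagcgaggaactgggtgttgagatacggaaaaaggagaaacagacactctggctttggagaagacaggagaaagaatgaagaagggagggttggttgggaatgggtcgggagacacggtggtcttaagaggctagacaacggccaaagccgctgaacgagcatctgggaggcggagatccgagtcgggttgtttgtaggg
Pf4: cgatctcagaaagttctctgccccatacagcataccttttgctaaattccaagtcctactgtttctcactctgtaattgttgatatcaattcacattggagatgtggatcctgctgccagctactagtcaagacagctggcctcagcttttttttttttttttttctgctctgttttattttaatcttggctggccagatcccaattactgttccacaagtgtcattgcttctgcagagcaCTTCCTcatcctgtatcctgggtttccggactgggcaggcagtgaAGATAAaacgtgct
Alas2: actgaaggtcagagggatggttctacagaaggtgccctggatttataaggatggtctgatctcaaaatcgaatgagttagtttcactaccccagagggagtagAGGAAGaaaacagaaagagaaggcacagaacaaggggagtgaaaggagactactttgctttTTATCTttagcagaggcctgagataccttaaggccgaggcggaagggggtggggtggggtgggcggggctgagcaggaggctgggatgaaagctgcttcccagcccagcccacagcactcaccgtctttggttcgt
Epb42: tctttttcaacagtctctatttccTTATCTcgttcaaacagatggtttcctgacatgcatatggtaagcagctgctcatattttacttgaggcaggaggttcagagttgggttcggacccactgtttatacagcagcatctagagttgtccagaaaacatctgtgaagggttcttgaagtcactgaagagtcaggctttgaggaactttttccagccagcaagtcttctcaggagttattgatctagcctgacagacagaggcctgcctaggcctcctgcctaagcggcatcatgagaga
Zfp42: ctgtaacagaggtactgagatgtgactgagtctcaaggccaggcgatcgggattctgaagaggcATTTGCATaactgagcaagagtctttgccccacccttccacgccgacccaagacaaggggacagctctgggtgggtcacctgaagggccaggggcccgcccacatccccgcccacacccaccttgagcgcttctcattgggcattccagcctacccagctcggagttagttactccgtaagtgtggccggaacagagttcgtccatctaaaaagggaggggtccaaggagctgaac

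GATA letters start at base 46 of the window in Tal1, 287 in Pf4, 165 in Alas2 and 25 in Epb42, the ETS letters at 242 in Pf4 and 104 in Alas2, and the octamer at 65 in Zfp42. A match of letters is a description of the window and shows no binding. Pf4 had no counts in mESCs and 5.67, 1.21, 0.93 and 3.25 CPM in HPCs (at least 89.2-fold higher, adjusted p = 0.00033), and Alas2 had 8.1, 20.2, 10.5 and 12.2 CPM in HPCs against none in mESCs (at least 411-fold, 4.3e-06). Epb42 was at least 146-fold higher, with 3.01 to 5.86 CPM in HPCs.

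Markers of other cell types that the gate could hold were measured beside these groups. Of 22 leukocyte and myeloid genes 13 were tested and all 13 called higher. Over the alternatives 9 to 16 were higher, and 11 with the mESC libraries summed. Among them were the signaling gene Vav1 and the actin regulator genes Was and Coro1a, which many kinds of blood cell share. The integrin genes Itgb2 and Itgal and the cytokine receptor gene Csf2rb were higher as well. Over the alternatives their log2 fold changes ran from 7.16 to 9.69, 3.01 to 3.59 and 6.02 to 7.11. By contrast, the defining markers Itgam, a myeloid integrin, and Csf1r, the receptor of macrophage growth factor, had at most 3 counts in every HPC library. Of 22 endothelial genes 15 were tested, 7 were called higher (46.7%) and 1 lower (6.67%), beside 17% and 25% of all genes tested. The alternatives gave 3 to 10 higher, and 4 with the mESC libraries summed. Kdr, the Flk1 receptor by which mesoderm was sorted, had 0.125 and 0.146 CPM in mESCs, 51.1, 36.2 and 22.7 in mesoderm and 15, 6.72, 3.72 and 9.98 in HPCs, so that it stayed above mESCs (6.01 ± 0.64, adjusted p = 3.1e-05) although it had fallen from mesoderm. Cdh5, the cadherin of endothelial junctions, had 0.897 to 3.28 CPM in HPCs and differed widely within mesoderm, with 37.1 (B9.3), 0.491 (C6.1) and 3.47 (C8.1). Summed endothelial genes had 278, 57.8 and 65.8 CPM in these mesoderm libraries, so each first-step value of an endothelial gene joins unlike libraries. Pecam1 (CD31), a junction protein of endothelium and platelets, had 1.76 and 1.9 CPM in mESCs, 14.5, 0.491 and 3.71 in mesoderm and 8.64 to 14.5 in HPCs, above both mESC libraries (2.58 ± 0.75, adjusted p = 0.014, or 0.096 with the mESC libraries summed). Kit, the stem cell factor receptor, had 3.08 and 2.99 CPM in mESCs and 4.25 to 9.64 in HPCs and was not called (1.0 ± 0.67, adjusted p = 0.24). Of 22 primitive streak genes 13 were tested, 1 was called higher (7.69%) and 4 lower (30.8%), beside 17% and 25% of all genes tested. Of these 13, 11 are at a bound, and their median log2 fold change was -3.88, or 0.00 at that bound. The summed level in HPCs was 4.05 CPM in B9.3 and 0 to 0.224 in the other libraries. Eomes and T, which specify mesoderm, had no counts in HPCs, and the mESC level (at most 0.339 and 0.14 CPM) is close to or under the HPC floor, so that the net change of these transient genes could not be measured. Of 12 cardiac and smooth muscle genes tested (of 18) 4 were called higher (33.3%, 1 to 6 over the alternatives) and 3 lower (25%). Of these, Acta2, the smooth muscle actin, had 15.7 CPM in HPCs of B9.3 and 0.517 to 1.2 in the other 3, and Hand1, a factor of lateral and extraembryonic mesoderm, had 1.85 in B9.3 and no counts in the others. Without the B9.3 library the fitted net log2 fold change of Hand1 turned from 4.48 to -2.57. Of 14 neural genes 8 were tested and 7 called lower, with 2 to 7 over the alternatives and 5 with the mESC libraries summed. Of these 8, 6 are at a bound, and their median was -5.28, or -1.16 at that bound. Pax6 for example had 0.937 and 1.13 CPM in mESCs and no counts in HPCs. The summed neural level was 14.3 CPM in HPCs of B9.3, at that of mESCs (13.5 and 14.3), and 3.14 to 3.79 in the other 3. None of 4 endoderm genes tested (of 13) was called, and their list summed to 12.1 CPM in HPCs of B9.3, 0.785 to 1.21 in the other 3 and 7.97 and 8.46 in mESCs. The defining markers Nkx2-5, Sox1, Foxa2 and Afp were at or under the floor in all HPC libraries. What part other cell types have in the B9.3 values was not tested.

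Genes of glycolysis and the hypoxia response, counted as 1 list, were lower in HPCs. Of 18 tested (of 20) 15 were called lower and 0 higher (median log2 fold change -2.81). Hk2, a hexokinase that starts glycolysis, had 29 and 29.6 CPM in mESCs, 10.6 to 14.7 in mesoderm and 1.01 to 3.36 in HPCs (-4.0 ± 0.35, adjusted p = 8.7e-06), with no overlap between neighbouring stages. Eno1, the enolase, had 24.7 and 21 CPM in mESCs against 1.03 to 1.62 in HPCs (-3.98 ± 0.27), and Pkm, the pyruvate kinase gene, 69.2 and 71.7 against 3.97 to 13 (-3.18 ± 0.35). Among adhesion genes, 9 of 15 tested (of 17) were lower (60%) and 2 higher (13.3%), beside 25% and 17% of all genes tested. The count of lower ones ran from 5 to 12 over the alternatives. E-cadherin (Cdh1) had 15.1 and 17.3 CPM in mESCs and 0 to 0.116 in HPCs, at least 40.5-fold lower, and Epcam, which marks epithelial and pluripotent cells, was at least 12.4-fold lower.

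Regulators of chromatin and DNA methylation changed in both directions. Of 9 genes of DNA methylation, 3 were lower (33.3%) and 2 higher (22.2%), near the 25% and 17% of all genes tested. Tet1, an enzyme that oxidizes methylcytosine in pluripotent cells, had 72.8 and 78.1 CPM in mESCs, 8.62 to 15.5 in mesoderm and 2.89 to 5.49 in HPCs (-4.25 ± 0.30, adjusted p = 2.7e-06). Its relative Tet3 went up, from 4.93 and 4.67 CPM through 9.33 to 28.3 in mesoderm to 32.4 to 45.3 in HPCs (3.06 ± 0.39, 0.0001). The libraries of both genes did not overlap between mESCs and HPCs, in opposite order. The de novo methyltransferase Dnmt3b was lower (-3.04 ± 0.37) and its cofactor Dnmt3l had no counts in HPCs (at least 13.7-fold lower), whereas the maintenance enzyme Dnmt1, with 24.5 and 29.5 against 17.8 to 27.6 CPM, was not called (-0.23 ± 0.23, adjusted p = 0.43). Of 16 Polycomb genes tested (of 19) 7 were lower (43.8%) and 3 higher (18.8%), beside the same 25% and 17% (median -0.19).

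Cell cycle genes moved both ways, with 7 of 22 tested (of 25) higher (31.8%) and 8 lower (36.4%), beside 17% and 25% of all genes tested. Their median lay between -0.64 and 0.06 over the alternatives. Mki67, which encodes the proliferation marker Ki-67, had 19.1 and 18.9 CPM in mESCs and 70.4, 118, 146 and 59.1 in HPCs of B9.3, B9.3-2, C6.1 and C8.1 (2.37 ± 0.36, adjusted p = 0.00033). Its higher pair, B9.3-2 and C6.1, was that of the erythroid sum. Among D-type cyclins, which carry growth signals to the cycle, Ccnd1 fell by 4.57 ± 0.58 on the log2 scale and Ccnd3 rose by 2.47 ± 0.38 (9.9e-05 and 0.00033). Rb1, the retinoblastoma brake on S phase, had 2.23 and 1.83 CPM in mESCs and 20.9 to 47 in HPCs (3.95 ± 0.37). In cytokine signaling, 6 of 15 tested (of 19) were higher (40%) and 4 lower (26.7%), beside the same 17% and 25%. With the mESC libraries summed 3 were higher and 3 lower (3 to 7 higher over the alternatives). Jak2, the kinase of erythropoietin and thrombopoietin receptors, was at 3.78 ± 0.26 and its target Stat5b at 4.09 ± 0.32. Immediate early genes, which respond to handling of cells, had 1 of 14 tested (of 16) called in each direction.

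Ribosomal protein, histone and small nucleolar RNA genes, which are short, were lower in HPCs. Of 83 ribosomal protein genes 80 were tested and 69 called lower (median -1.82), of 55 replication-dependent histone genes 54 and 27 (-1.05), and of 105 small nucleolar RNAs 77 and 49 (-2.48, or -0.21 at their bound), with 0 higher in each list. The count for small nucleolar RNAs ran from 4 to 56 over the alternatives, with 19 when the mESC libraries were summed. The change differed between classes of genomic span, not in one direction: of 257 genes tested under 1 kb 54.5% were lower and 0.778% higher (median -2.04), whereas of 1776 genes of 100 to 500 kb 23.3% were lower and 30.6% higher (median 0.34), and of 175 genes of 500 to 2500 kb 26.9% were lower and 24% higher (median -0.31). The libraries of both ends also differ in rRNA depletion, and its part in these groups cannot be told apart from that of the stage. Of 14 germline genes 8 were tested and 6 called lower, with 0 to 8 over the alternatives and 2 with the mESC libraries summed. All 8 are at a bound, and their median was -5.57, or -0.16 at that bound. Of 39 Hox genes 2 had enough counts for a test and 0 were called.

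**Figure D2:**
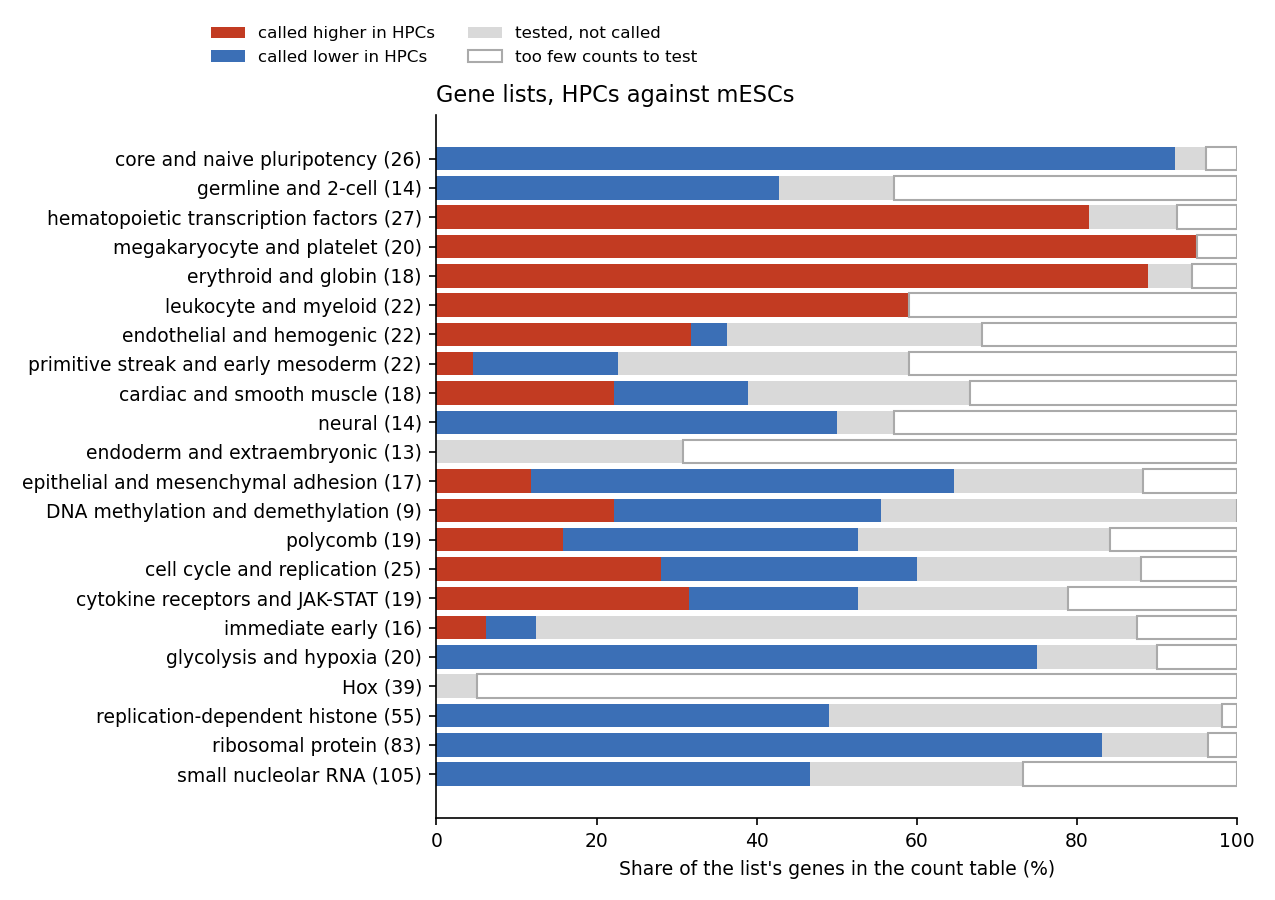
Shares of each gene list, in percent of its genes in the count table, that were called higher in HPCs, called lower, tested and not called, or had too few counts for a test. Blood lists are called higher almost throughout (22 of 27 transcription factor genes) and pluripotency genes lower (24 of 26), beside 17.0% and 25.0% of all genes tested.

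The 2 steps divide the net change unequally between gains and losses. Between mESCs and mesoderm 3147 genes (24.4%) were called, 1386 higher (10.7%) and 1761 lower (13.7%), and between mesoderm and HPCs 3007 (23.3%), 1394 higher (10.8%) and 1613 lower (12.5%). Both steps share the mesoderm libraries, and each shares an end with the net change, so the routes below are counts from one fit and not separate tests. Of the 2188 genes that were net higher, 863 (39.4%) were called in the second step alone, 528 (24.1%) in the first alone, 178 (8.14%) in both and 517 (23.6%) in neither, while 102 (4.66%) had a step called against the net direction. Of the 3220 net lower genes, 1190 (37%) were called in the first step alone, 730 (22.7%) in the second alone, 154 (4.78%) in both, 1062 (33%) in neither, and 84 (2.61%) against it. Megakaryocyte and erythroid genes were mostly late (13 of 19 and 13 of 16), whereas 13 of the 22 hematopoietic transcription factors rose in both steps. The early share rests on the number of mESC libraries: with them summed, 14.6% of higher and 21.2% of lower genes were called in the first step alone.

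**Figure D3:**
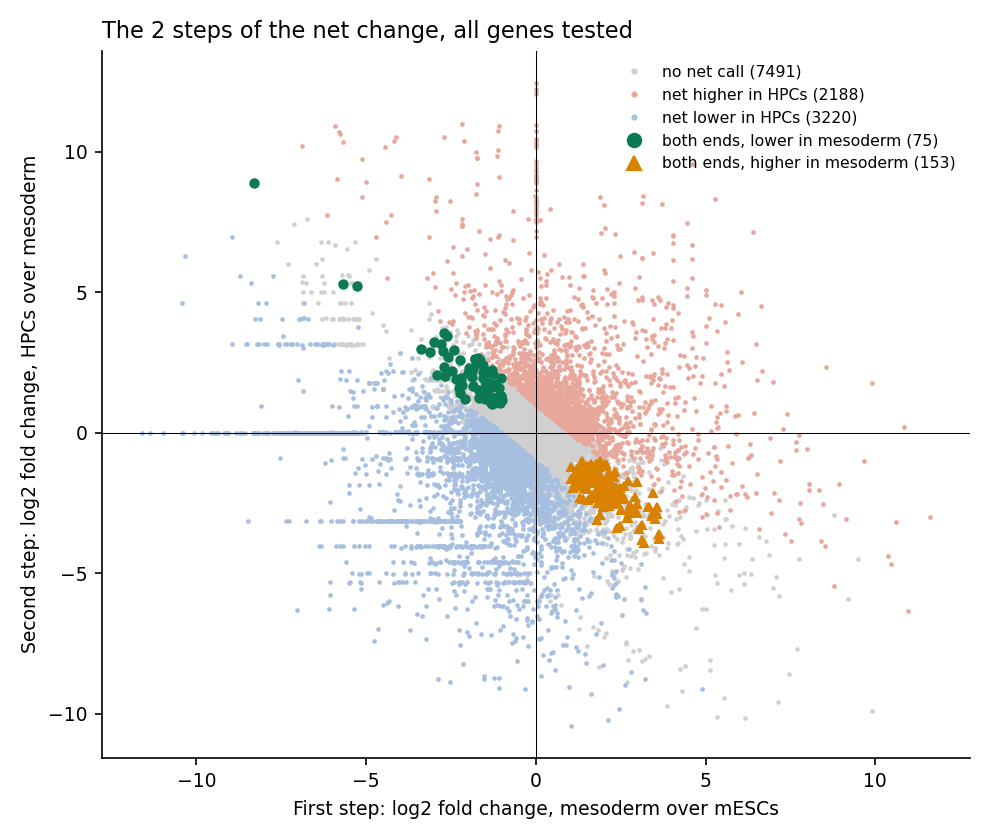
Log2 fold change of the second step (HPCs over mesoderm, y axis) against that of the first (mesoderm over mESCs, x axis) for all 12899 genes tested, each a point, coloured by net call. The net change is the sum of both axes by construction, so the 75 and 153 genes of both ends lie along the falling diagonal at its upper left and lower right.

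Genes that both ends share and mesoderm does not were sought among those without a net call. Of 7491 such genes 1318 had a step called, 113 were lower in mesoderm and then higher, and 376 higher and then lower. With a mean of at least 1 CPM at both ends, 75 and 153 remained. The values of the steps chose these genes and are given as a description. A missing net call does not show that both ends are equal, and the median net log2 fold change was 0.143 for the 75 and 0.035 for the 153. With the mESC libraries summed the lists hold 32 and 64 genes, of which 26 and 59 are among the 75 and 153, so their size rests on counting technical replicates as libraries.

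Among the 75 genes that dipped in mesoderm, the 10 with the smallest adjusted p in both steps included genes of chromatin, the cytoskeleton and iron. Kat2b, the histone acetyltransferase PCAF (chromosome 17, 53706295 to 53812046, mm9), had 7.61 and 7.03 CPM in mESCs, 1.8, 1.15 and 1.61 in mesoderm and 8.68, 8.45, 9.96 and 11.1 in HPCs. Its mesoderm libraries lay apart below both ends, with steps of -2.22 ± 0.25 and 2.61 ± 0.24 and a net change of 0.39 ± 0.22 on the log2 scale. Map7, which binds microtubules, had 9.63 and 8.47 CPM, then 0.819 to 1.61, then 7.24 to 15. Ncoa4, the receptor that sends ferritin to autophagy to free iron, had 1.76 and 1.86 CPM, then 0.47 to 0.655, then 2.66 to 3.82. Neat1, the noncoding RNA of paraspeckles, had 11.2 and 12.5 CPM, then 0.819 to 2.2, then 4.83 to 15.2. In all 3 of these genes every mesoderm library was below every library of both ends. Adap1, an ARF GTPase-activating protein gene, and Slco4a1, an organic anion transporter gene, had at most 1 count in any mesoderm library against 1.68 and 2.01 and 1.4 and 1.38 CPM in mESCs and 1.03 to 1.74 and 0.797 to 1.91 in HPCs. Grtp1, Sema4b, Gid8 and LOC106557447 complete the 10. Outside the 10, and named after its values were seen, Tfrc, the transferrin receptor that brings iron into cells, had 22.2 and 22 CPM in mESCs, 6.04, 8.68 and 6.86 in mesoderm and 27.5, 48.3, 59.8 and 35.2 in HPCs. Chosen in the same way, Jarid2, a subunit of the Polycomb complex PRC2, had 70.7 and 72.8 CPM, then 23.4 to 30.8, then 42.1 to 123. Of the list, 36 genes were kept when mesoderm of C8.1 was left out and 21 when the first mESC library was.

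The 153 genes that peaked in mesoderm belong to 128 separate loci, since 24 entries are overlapping transcripts of the gamma protocadherin cluster on chromosome 18. These entries share reads and count as 1 locus, and 6 of the 10 genes of this list with the smallest adjusted p are among them. Pcdhga9, a neuronal cell adhesion gene of that cluster, had 3.85 and 3.12 CPM in mESCs, 19.1, 17.5 and 20.8 in mesoderm and 4.51, 3.28, 2.92 and 5.05 in HPCs. Fgd5, an activator of Cdc42 in endothelium and blood stem cells (chromosome 6, 91928958 to 92025999), had 1.79 and 1.83 CPM, then 20.9, 12.8 and 13.5, then 1.5, 2.41, 0.93 and 1.68. Its steps were 3.12 ± 0.34 and -3.29 ± 0.30 and its net change -0.18 ± 0.33 on the log2 scale. In both genes the ends overlapped with each other and not with mesoderm. Furin, a protease that matures growth factors, had 1.59 and 1.45 CPM, then 7.86 to 9.41, then 1.46 to 2.66. Kcnq5, a potassium channel gene, had 3.64 and 2.57 CPM, then 24.4 to 43, then 2.41 to 6.36, and Prkd1, a kinase of the protein kinase D family, 1.38 and 0.877, then 7.92 to 13.6, then 1.2 to 2.66. Entries of this list span more of the genome than others, with a median of 110901 bp against 25599 bp in genes that dipped and 25700 bp in all genes tested. Each of the 24 gamma protocadherin entries, with a median of 124268 bp, counts in it, so it is not a median of separate loci.

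Part of the shared level at day 7 came from 1 HPC library. Of the 153 genes 89 (58.2%) had their highest HPC value in B9.3, beside 26.4% of all genes tested, and 34 (22.2%) were there at least 2 times as high as in every other HPC library, beside 8.51%. These shares are of entries, and the 153 entries belong to 128 separate loci. Named after these values were seen, the N-cadherin gene Cdh2 had 6.94 CPM in B9.3 and 0.336 to 1.55 in the other HPC libraries, against 4.04 and 3.72 in mESCs and 29.9 to 41.9 in mesoderm. Lrp1, an endocytic receptor, had 9.6 CPM in B9.3 and 0.133 to 1.57 in the others, and Peg3, an imprinted mesodermal gene, 37.7 against 5.38 to 9.43. For these genes 3 of 4 HPC libraries were lower than B9.3 by far, and for Cdh2 and Lrp1 they were below both mESC libraries. Without B9.3, 13 of the 153 were called net lower in HPCs, and 127 remained on the list of 157 then found. Of the 75 genes that dipped, 14 (18.7%) had their highest HPC value in B9.3.

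**Figure D4:**
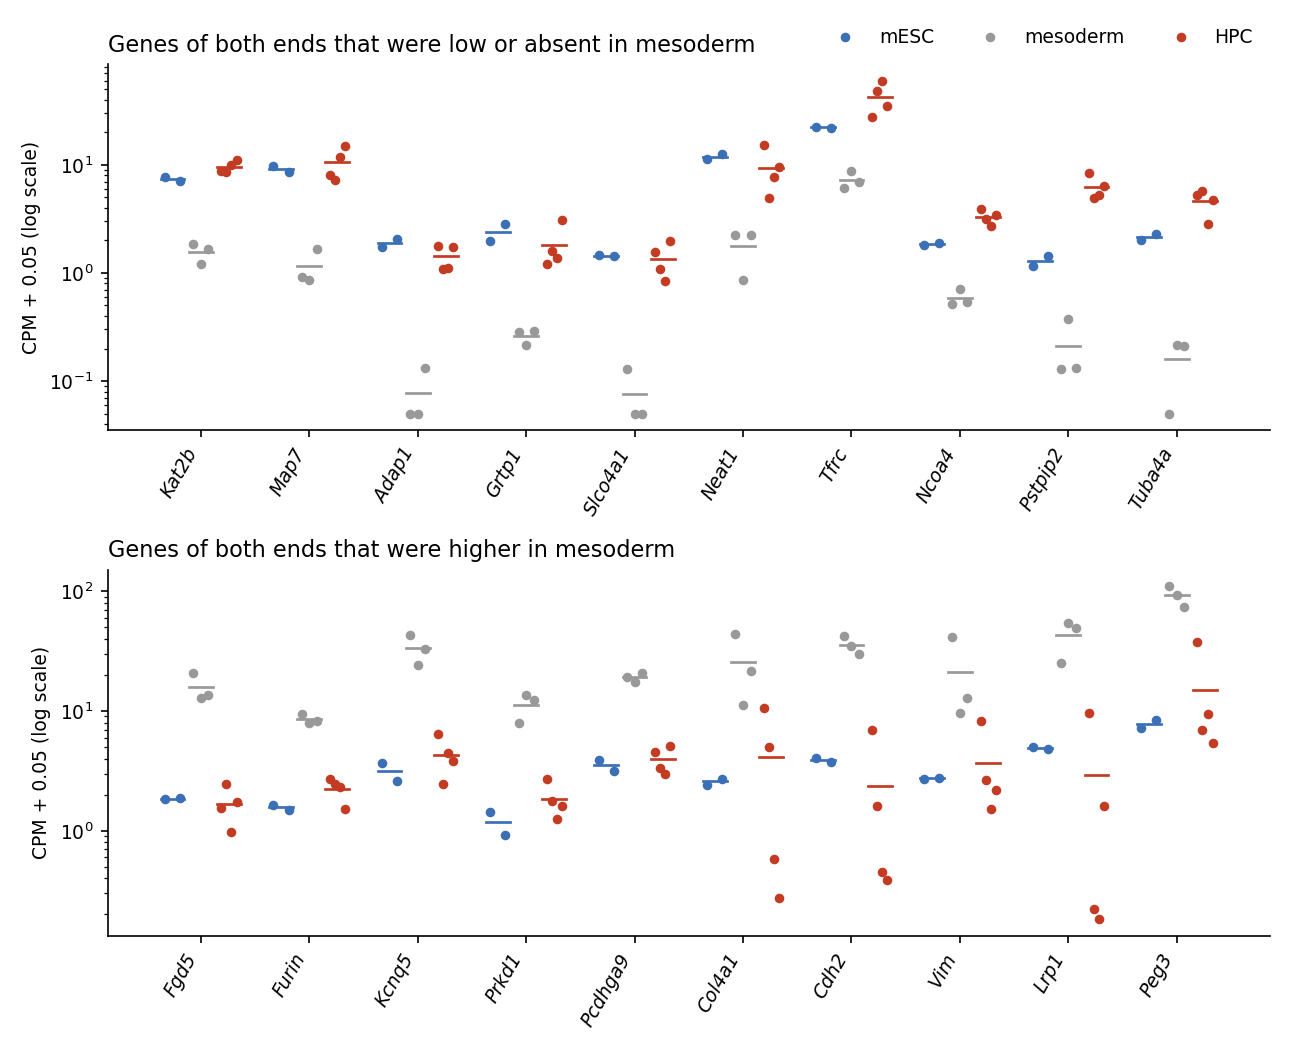
Levels of selected genes found at both ends, as CPM + 0.05 on a log axis (points: libraries; bars: group means; n = 2, 3 and 4). In the upper panel mesoderm lies below both ends (Kat2b at 1.15 to 1.8 CPM), and in the lower panel it exceeds them (Fgd5 at 12.8 to 20.9), while Cdh2 and Lrp1 show a single high HPC library.

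A stricter list held genes that were absent in mesoderm, with at most 3 counts in each of its libraries and at least 10 in every library of both ends. It holds 31 genes, of which 30 were net higher in HPCs and 1, LOC106557447, had no net call. Since mESCs were sequenced more deeply, only 8 of the 31 had a mESC mean above the highest floor of mesoderm, so for the others a mesoderm level equal to that of mESCs could have gone uncounted. Both steps were called for 12 of the 31. These include genes under that floor in mESCs, such as Alox5 (mean 0.306 CPM) and Ltbp2. For them the first-step call rests on a mESC level that could have gone uncounted in mesoderm. Tuba4a, an alpha tubulin gene of platelets, had 1.95 and 2.22 CPM in mESCs, 0, 0.164 and 0.161 in mesoderm and 5.21, 5.69, 2.79 and 4.71 in HPCs. Mesoderm was at least 6.45-fold below mESCs (adjusted p = 0.00054) and HPCs at least 14.2-fold above mesoderm (4.7e-05). Pls1, an actin-bundling fimbrin gene, had 1.32 and 1.28 CPM, then 0 to 0.157, then 5.69 to 27.4, and Pstpip2, an actin-associated adaptor gene, 1.11 and 1.37, then 0.0784 to 0.327, then 4.83 to 8.33. In each of them the 3 stages did not overlap. Ltbp2, which binds the extracellular matrix, had 0.288 and 0.266 CPM in mESCs, under the highest mesoderm floor, and 5.86 to 14.5 in HPCs. Among the genes whose lowest count at the ends was highest were also Mgst3, Atp8b1, Cntn3, Dhrs11 and Fam160a1, all net higher. Thbs1, the thrombospondin of platelets and the one member of the megakaryocyte list with a step against its net direction, was near this pattern, with 15.4 and 11.2 CPM in mESCs, 0.164 to 0.549 in mesoderm and 341, 91.5, 78.8 and 280 in HPCs.

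The opposite extreme were genes of mesoderm that neither end held at a like level. Tbx3, a T-box factor of mESCs and of mesoderm, had 0.834 and 0.492 CPM in mESCs, 10.3, 32.3 and 18.7 in mesoderm and at most 0.133 in HPCs, where only C6.1 had a count. It was called higher, then lower, and net lower (at least 1.66-fold, adjusted p = 0.0066).

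The second step was measured once more in libraries that had not entered these lists, namely 6 mesoderm and 8 HPC libraries of clones with a deleted CTCF site at the P1 or the P2 promoter of Runx1. In these knockout clones 8832 genes were tested between mesoderm and HPCs, with 1526 (17.3%) called higher and 1498 (17.0%) lower. Of the 75 genes that dipped, 73 were tested, 46 were called higher and 0 lower, with a median log2 fold change of 1.44 beside -0.04 over all genes. All 153 genes that peaked were tested, 125 were called lower and 0 higher (median -1.75), and all 31 absent genes were called higher (median 5.10). The 153 are entries of 128 separate loci, and 24 of them, of the gamma protocadherin cluster, share reads. Their counts are thus of entries and not of loci. In signs, 70 of 73, 152 of 153 and 31 of 31 moved as in wild-type cells. The lists had been chosen by wild-type levels in mesoderm and HPCs. Other genes called in the wild-type second step were not counted here, so this is not shown to be particular to these lists. Kat2b rose in the knockout clones by 2.53 on the log2 scale (adjusted p = 5e-05), and Fgd5 fell by 2.58 (0.00061). These clones share the culture protocol with the wild type and hold no undifferentiated library, so the first step and the net change have no such second measure.

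**Figure D5:**
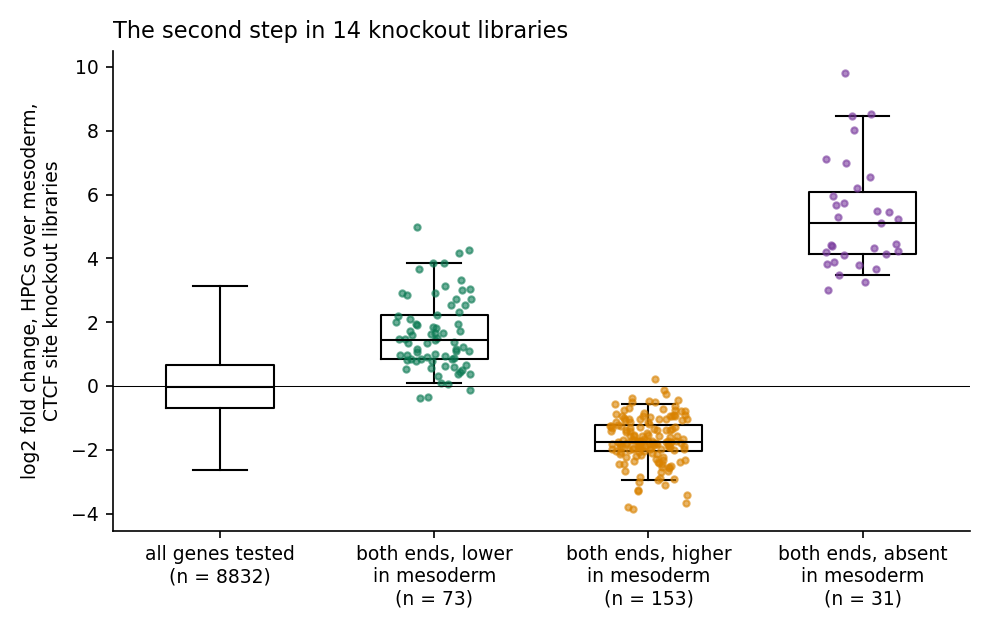
Log2 fold change of HPCs over mesoderm in 14 CTCF site knockout libraries (y axis) for all 8832 genes tested and for the genes of each list (points; boxes: median and quartiles; whiskers: 5th to 95th percentile). The medians are -0.04 for all genes, 1.44 for genes lower in mesoderm, -1.75 for those higher and 5.10 for those absent.

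Open chromatin at start sites was read from the ATAC-seq peak lists of wild-type mesoderm (76766 peaks) and HPCs (29037), each called on merged libraries of an E14 reporter line, which gives no replicates and no test. A peak lay within 500 bp of a start site for 84.6% of genes tested in mesoderm and 61.6% in HPCs, and mESCs have no such list here. By the paper's methods the mesoderm list merges more libraries and experiments than the HPC list. The part of this in the difference between both shares was not tested. Net higher genes had a peak in HPCs in 64.4%, net lower genes in 46.4% and genes without a net call in 67.4%. A peak in HPCs alone was found for 5.68% of genes that rose in both steps, beside 0.916% of all. Of the 75 genes that dipped in mesoderm 90.7% had a mesoderm peak, near the share of all genes tested, and of the 31 absent genes 67.7% did. Genes that peaked in mesoderm had a peak there in 80.4% and in HPCs in 55.6%.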

How the data were processed

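The authors mapped reads with STAR to mm9 and counted them over exons and introns with featureCounts. The deposited values are raw read counts of 25146 genes, and 0 columns were left out. The strand setting and annotation are not given in the sources used here, so overlapping and antisense genes cannot be told apart. The ATAC-seq peaks of the deposited lists were called by the authors with MACS2 on merged libraries. Samples were grouped by their labels.

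Counts of 9 wild-type libraries entered 1 fit in edgeR 4.0.16 (R 4.3.3), with TMM, filterByExpr (minimum count 10), the quasi-likelihood test and Benjamini-Hochberg adjustment, and those of 14 knockout libraries another. Entries of rRNA or listed at several loci, or spanning over 2.5 Mb, and 10 rRNA-like entries stayed in the library sizes and were not named. SE is the log2 fold change divided by the root of F. A group at or below 3 counts in every library gives a bound. Comparisons were those of HPCs, mesoderm and mESCs with each other. Members, gene lists and tests were chosen with earlier results of these data known. Named genes were those the study names with an expression result, in each direction the 10 called genes without overlap that ranked first by adjusted p, called or defining members of the lists, and 10 genes of each list of both ends, of which 1 is not reported here. Others are said to be chosen after their values were seen. Alternatives were DESeq2 1.42.0, RLE size factors, no filter, thinned counts, counts without ribosomal entries, summed libraries, each library left out, other list limits and the clone as a block. The fits were tested on simulated data. CPM and peaks were summarised in Python 3.11.15.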

Additional observations from a re-analysis of the deposited data

Results flagged for a closer look

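In 11 of 102 named genes, the highest or lowest of the 4 HPC libraries stood apart from the other 3 by Dixon's criterion at the 95% level. Chance meets it in about 1 in 20 groups of unselected, continuous values, which these are not. Lrp1 and Peg3 were named after their B9.3 values were seen. In HPCs of B9.3, Acta2 had 15.7 CPM against at most 1.2 in the others, Hand1 1.85 against no counts, Lrp1 9.6 against 0.133 to 1.57, and Peg3 37.7 against 5.38 to 9.43. Cdh5 had 3.28 CPM in HPCs of B9.3-2 against 0.897 to 1.2 in the other 3 libraries. The remaining 6 rest on at most 1 count per library, and a single count beside libraries with none always meets the criterion. Of these, Afp and Nanog each had 0.116 CPM in HPCs of B9.3, Tbx3 had 0.133 in C6.1, and Csf1r and Zfp42 each had 0.112 in C8.1, with no counts in the others, while Platr22 had 0 in B9.3-2 against 1 count in each of the others.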

How the results depend on the processing

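Of the net calls, 0 changed direction when the mESC libraries were summed, but most counts depend on treating the technical replicates as 2 libraries. With the mESC libraries summed, the net change had 3587 calls (2032 lower) and the first step 1142 (553 higher, 589 lower), 32 genes dipped and 64 peaked in mesoderm, and of net higher genes 14.6% were early and 5.21% called in both steps, of net lower genes 21.2% and 2.95%. Leaving out a library gave 3470 to 5523 net calls (3470 without the second mESC library, 3609 without the first), 1983 to 3293 of them lower (1999 without the second mESC library), and 1085 to 3425 in the first step (1088 without the second), with 507 to 1566 higher (545 without the first) and 540 to 1859 lower (581 without the second). It gave 25 to 84 genes that dipped (34 without the second mESC library, 46 without mesoderm of C8.1), 61 to 168 that peaked (64 without the second mESC library) and 31 to 51 absent genes, the highest without mesoderm of B9.3. The early share ran from 13.9% to 26.9% of higher genes (14.4% without the first mESC library) and from 20.2% to 42.6% of lower genes (21.1% without the second), and the share called in both steps from 4.49% to 8.99% (4.89% without the second) and from 2.55% to 6.41% (2.82% and 2.75% without an mESC library).

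Thinned to the shallowest library, the net change had 3032 calls (1548 lower), the first step 1443 (786 higher, 657 lower), and 38 genes dipped and 230 peaked. Without ribosomal entries the first step had 1149 lower genes, 326 genes peaked (1 CPM is then a lower level) and 7.3% of lower genes were called in both steps. A contrast of mesoderm with the mean of both ends gave 149 that dipped and 243 that peaked. The absent list held 10 genes at 20 counts at both ends and 56 at up to 5 counts in mesoderm. The second step had 1817 calls with the clone as a replicate block in 7 libraries and 1939 without the block, the latter chosen after seeing the data. mESCs share no clone with HPCs, so no paired analysis of the net change could be made, and deviations from the stage means correlated by 0.252 (C6.1), -0.095 (C8.1) and -0.0374 (B9.3) over 2981 genes, which does not pair the clones. Hand1 turned to a net log2 fold change of -2.57 without HPCs of B9.3. Of 6349 comparisons of 386 named genes, 5874 kept their call, 468 lost it, 6 gained it and 1 turned. The causes were not tested.

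At this depth HPC levels under 0.336 to 0.517 CPM could not be told from 0. The mESC libraries are by their labels 1 biological replicate, with another library preparation, and the 4 HPC libraries are 3 clones.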
